A study of Mus musculus with 6 samples.

Results

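Antigen presentation genes were followed in hind leg muscle of untrained and treadmill-trained mice. The 10 genes were taken from the deposited table by symbol, out of 16759 genes listed there, and each matched 1 row. The class I set held H2-K1 and H2-D1, the heavy chains of the classical MHC class I molecules, B2m, their light chain β2-microglobulin, and Tap1, Tap2 and Tapbp, which bring peptides to class I molecules in the endoplasmic reticulum. The class II set held H2-Aa, H2-Ab1 and H2-Eb1, which encode MHC class II chains, and Cd74, the invariant chain that escorts class II molecules through the cell. In EX muscle 4 of the 6 class I genes were lower than in Con muscle, by 12.5% to 23.2%, while all 4 class II genes were higher, by 30.4% to 46.3%. Of all genes tested, 8.8% were lower and 9.11% higher. The fall of 23.2% was that of Tap1, which did not pass the test in every alternative setting.

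The mice were male C57BL/6J animals, 8 weeks old at the start, the strain being the same in both groups. The 3 exercise (EX) mice ran on a treadmill for 60 min per session, 5 sessions a week, for 6 weeks, with a labelled running distance of 22 km per mouse and tissue taken 24 h after the final session, whereas the 3 control (Con) mice had no treadmill training. Each library came from 1 mouse, after perfusion with saline and removal of fat between the muscles, and the sources used here do not say which hind leg muscle the piece was taken from. Because the samples are pieces of whole tissue, fewer cells of a type and less RNA per cell cannot be told apart in any value given here.

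MHC class I molecules sit on nearly all nucleated cells and show fragments of proteins made inside the cell to CD8 T cells. Their fragments are cut by the proteasome, pumped into the endoplasmic reticulum by the transporter that Tap1 and Tap2 form, and loaded with the help of tapasin, the product of Tapbp. MHC class II molecules are made mainly by macrophages, dendritic cells and B cells and show fragments of engulfed proteins to CD4 T cells. Skeletal muscle fibres carry little class I and normally no class II at rest. The C57BL/6 strain carries the b haplotype, in which H2-Ea, the partner chain of H2-Eb1, is not made.

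Transcription of the classical class I genes is driven by NLRC5 and that of the class II genes by CIITA, which both act through proteins bound at X and Y boxes before the gene. Promoters of 5 members are shown because they hold short elements known from MHC genes, among them the Y box in 4 of the 5. The RefSeq promoter table (GRCm38.p6, 250 bases before to 50 after each start) held 7 of the 10 members. In the sequences below, which end at the RefSeq start site except for H2-K1, which runs 20 bases past it, capitals mark the Y box (CTGATTGG, or CCAATCAG where it lies on the other strand), the kappa B motif (GGGATTCCC) and the interferon-stimulated response element (TTTCNNTTT, here on the other strand). The class I heavy chain promoters were those of H2-K1 (chr17:34000328-34000527, minus strand) and H2-D1 (chr17:35262914-35263093, plus strand), followed by that of the light chain B2m (chr2:122147507-122147686, plus strand) and those of the class II genes H2-Aa (chr17:34287824-34288003, minus strand) and H2-Eb1 (chr17:34305687-34305866, plus strand).
H2-K1: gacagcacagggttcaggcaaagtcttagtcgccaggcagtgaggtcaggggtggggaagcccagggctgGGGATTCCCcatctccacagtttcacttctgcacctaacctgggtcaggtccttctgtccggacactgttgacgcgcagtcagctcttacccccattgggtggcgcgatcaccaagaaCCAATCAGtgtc
H2-D1: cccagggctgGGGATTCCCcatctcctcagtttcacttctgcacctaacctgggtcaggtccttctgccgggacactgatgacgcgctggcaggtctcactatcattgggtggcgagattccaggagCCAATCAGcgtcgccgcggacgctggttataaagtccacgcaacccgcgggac
B2m: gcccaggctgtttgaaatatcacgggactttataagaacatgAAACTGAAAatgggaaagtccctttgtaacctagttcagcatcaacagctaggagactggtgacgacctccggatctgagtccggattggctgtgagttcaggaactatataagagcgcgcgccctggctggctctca
H2-Aa: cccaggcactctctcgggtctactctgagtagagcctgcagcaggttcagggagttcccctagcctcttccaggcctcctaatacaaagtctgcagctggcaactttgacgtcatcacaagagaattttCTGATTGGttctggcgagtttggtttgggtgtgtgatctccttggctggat
H2-Eb1: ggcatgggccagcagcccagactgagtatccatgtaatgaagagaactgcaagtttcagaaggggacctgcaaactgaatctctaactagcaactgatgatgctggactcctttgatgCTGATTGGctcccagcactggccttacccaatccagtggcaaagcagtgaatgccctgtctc

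Each element was searched as an exact match to its letters, on both strands. The Y box was found in 5 of the 7 member promoters, those of H2-K1, H2-D1, Tap1, H2-Aa and H2-Eb1, and in 4.1% of the 32851 promoters of the table. Counted from the RefSeq start, with bases before it negative, it lay at -51 to -44 in H2-Aa and at -62 to -55 in H2-Eb1 on the strand of the gene, and at -53 to -46 in H2-D1 on the other strand. In H2-K1 it lay after the start, at 9 to 16, and in Tap1 far before it, at -222 to -215, both on the other strand. H2-K1 has 2 starts listed, of which the first along the gene was used, and its positions depend on that choice. The kappa B motif was found in H2-K1 and H2-D1 and in 0.353% of all promoters. The H2-K1 and H2-D1 promoters were identical at 206 of 228 aligned positions, or 90.4%. An exact match to the interferon-stimulated response element was found in B2m alone among the members and in 10.6% of all promoters. The H2-K1 and H2-D1 sequences both hold tttcacttc, which differs from the searched letters in its last base. The search thus does not show that these promoters lack the element. The inverted CCAAT box (ATTGG), which the Y box contains, was found in all 7 members and in 37.4% of all promoters. Neither the X box core (CCTAGCAAC, 0.804% of all promoters) nor the GAS element (TTCNNNGAA, 8.3%) had an exact match in any of the 7 windows. The H2-Eb1 sequence holds actagcaac, which differs from the X box core in its first base. A search for exact letters thus does not show that these promoters lack an X box. The letters of the Y box were thus present in genes of both classes. They lay on the strand of the gene in H2-Aa and H2-Eb1 and on the other strand in H2-K1, H2-D1 and Tap1. Whether they act as a Y box was not tested.

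The 6 libraries held between 13845362 and 16240431 counts on genes, and 10883 genes whose mean reached 1 FPKM (reads scaled by transcript length and library size) entered the quasi-likelihood test of edgeR, with p-values adjusted by Benjamini-Hochberg. Levels are given as CPM, counts scaled to a common library size by TMM between libraries, where comparing one gene between mice, and as FPKM where comparing genes with one another. Of the genes tested, 17.9% passed an adjusted p-value of 0.05, with 9.11% higher and 8.8% lower in EX muscle, and the EX and Con CPM values did not overlap for 33.7%. The median log2 fold change over all genes tested was 0.00 to 2 decimals. The tissue label was checked against 6 muscle fibre genes, which include Ckm, the muscle creatine kinase, and whose summed level was 147520 to 154762 CPM in Con and 160808 to 168863 CPM in EX libraries, and 3 of the 6 were higher in EX muscle. The deposited counts are estimates, and 4.18% to 4.44% of them per library had a fractional part. All 10 members had whole counts in all 6 libraries, while 1127 of the 16759 genes, or 6.72%, had a count that was not whole in at least 1 library. In the GENCODE M21 transcripts, 1.54% of the 150-base windows of H2-D1 were found in another gene, H2-Q1, and none of the windows of the other 9 members were.

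Among the class I genes, 4 of 6 were lower in EX muscle, which is read against 8.8% of all genes tested, and none was higher. The EX and Con CPM values did not overlap for any of the 10 members, against 33.7% of all genes tested. H2-K1 (gene 14972) had 166, 152 and 140 CPM in Con replicates 1 to 3 and 131, 125 and 136 CPM in EX replicates 1 to 3. The lowest Con library thus stood just above the highest EX library. The log2 fold change of H2-K1 was -0.22 (standard error 0.05, 95% interval -0.32 to -0.12, adjusted p = 0.00204). H2-D1 (gene 14964) had 169, 157 and 156 CPM in Con and 135, 141 and 146 CPM in EX libraries. Con replicate 1 was the highest of the 6 and the groups were again separate. Its log2 fold change was -0.19 (standard error 0.04, 95% interval -0.28 to -0.10, adjusted p = 0.00186).

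B2m (gene 12010), whose product pairs with every class I heavy chain, had 119, 102 and 101 CPM in Con and 95.2, 86.7 and 90.2 CPM in EX libraries. Con replicate 1 stood highest, as it did for both heavy chains, and all 3 EX libraries were under the Con range. The log2 fold change was -0.24 (standard error 0.05, 95% interval -0.35 to -0.12, adjusted p = 0.00234). Without Con replicate 1, the log2 fold changes of H2-K1, H2-D1 and B2m were each -0.16, and over the 17 alternative settings their largest adjusted p-values were 0.0248, 0.0217 and 0.0262.

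The transporter and loading genes differed among themselves. Tap1 (gene 21354), one chain of the peptide pump, had 105, 147 and 148 counts in Con and 107, 117 and 94 counts in EX libraries. It had the fewest counts of the class I genes, with 7.53, 9.35 and 9.28 CPM in Con and 6.75, 7.45 and 5.97 CPM in EX libraries, and Con replicate 1 lay next to the EX values. Tap1 fell by 0.38 on the log2 scale (standard error 0.12, 95% interval of the change -0.63 to -0.13, adjusted p = 0.0282). Its call was lost without Con replicate 2 (adjusted p = 0.111), Con replicate 3 (0.0942), EX replicate 1 (0.0708) or EX replicate 3 (0.158), and with DESeq2 (0.124).

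Tap2 (gene 21355), the other chain of the pump, had 20.8, 21.6 and 24.2 CPM in Con and 20.2, 18.5 and 19.4 CPM in EX libraries. The lowest Con library, replicate 1, lay just above the highest EX library, and the log2 fold change of -0.20 (standard error 0.07, 95% interval -0.35 to -0.05) missed the threshold with an adjusted p of 0.0581. With each library left out in turn its value ran from -0.25 (adjusted p = 0.0197), without Con replicate 1, to -0.13 (adjusted p = 0.286), without Con replicate 3. Tapbp (gene 21356), encoding tapasin, was the 1 class I gene with a positive value. It had 48.6, 48.5 and 49.5 CPM in Con and 51.9, 51.5 and 52.0 CPM in EX libraries, values that were close together within each group. Its log2 fold change was 0.08 (standard error 0.05, 95% interval -0.02 to 0.18, adjusted p = 0.255), and in deposited FPKM the groups overlapped, at 20.2 to 21.0 in Con and 20.6 to 21.1 in EX muscle.

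All 4 class II genes were higher in EX muscle, read against 9.11% of all genes tested. Cd74 (gene 16149), the most abundant of them, had 26.8, 31.2 and 26.1 CPM in Con and 38.7, 40.4 and 38.7 CPM in EX libraries. Every EX library was well above the highest Con library, replicate 2. Cd74 rose by 0.49 on the log2 scale (standard error 0.06, 95% interval 0.35 to 0.62, adjusted p = 2.5e-06). H2-Aa (gene 14960), the α chain of the I-A molecule, had 14.9, 12.2 and 12.9 CPM in Con and 18.7, 18.7 and 20.8 CPM in EX libraries. It had the largest log2 fold change of the 10 members, at 0.55 (standard error 0.09, 95% interval 0.37 to 0.72, adjusted p = 2.5e-05).

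H2-Ab1 (gene 14961), the β chain of I-A, had 12.1, 11.9 and 10.6 CPM in Con and 12.8, 16.6 and 16.9 CPM in EX libraries. EX replicate 1 lay just above the Con range and the other EX libraries well above it. The log2 fold change was 0.42 (standard error 0.10, 95% interval 0.21 to 0.63, adjusted p = 0.0034). H2-Eb1 (gene 14969), the β chain of the I-E molecule, had 12.6, 12.3 and 12.9 CPM in Con and 14.3, 17.4 and 17.6 CPM in EX libraries. EX replicate 1 was again the lowest of its group. H2-Eb1 rose by 0.38 (standard error 0.09, 95% interval 0.20 to 0.57, adjusted p = 0.00275). H2-Ea, the partner chain, has no row in the table used here. Over the 17 alternative settings the largest adjusted p-values of the class II genes were 0.00537 for Cd74, 0.00549 for H2-Aa, 0.0492 for H2-Ab1 and 0.0334 for H2-Eb1.

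**Figure D1:**
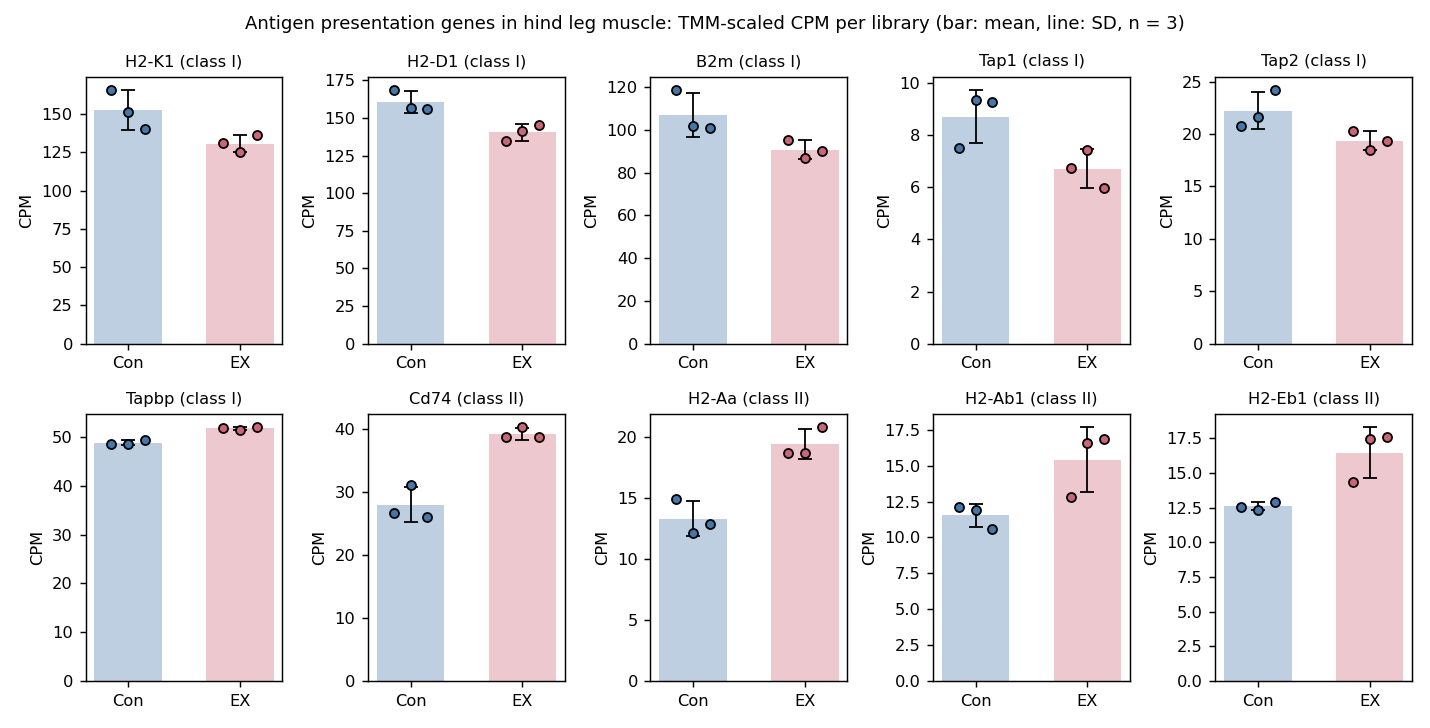
TMM-scaled CPM of the 10 members in each library (points, left to right replicates 1 to 3), with the mean (bar) and SD (line) of 3 mice for Con and EX, and a separate vertical axis from 0 for each gene. H2-K1, H2-D1 and B2m are lower and the 4 class II genes higher in EX muscle, and for Tap2 and Tapbp the difference did not pass the test.

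Ordered by FPKM, which takes transcript length into account, B2m was the most abundant member in Con muscle with 193 to 222 FPKM, followed by H2-D1 with 113 to 120 and H2-K1 with 106 to 122, whose ranges overlapped. Cd74 came next with 28.5 to 33.8 FPKM, then Tapbp with 20.2 to 21.0, H2-Aa with 15.3 to 18.6 and H2-Ab1 with 12.6 to 14.0. Tap2 with 9.66 to 11.5 FPKM and H2-Eb1 with 9.32 to 9.88 overlapped, and Tap1 was lowest with 2.88 to 3.63. In EX muscle the order differed at 2 places. H2-Aa, at 22.5 to 25.2 FPKM, stood above Tapbp, and H2-Eb1, at 10.5 to 12.8, stood above Tap2, at 8.25 to 9.21. The ranges of H2-D1 and H2-K1 overlapped in EX muscle as well.

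Summed over its 6 genes, class I had 497, 453 and 452 FPKM in Con and 399, 375 and 394 FPKM in EX libraries. Summed over its 4 genes, class II had 70.5, 72.4 and 67.7 FPKM in Con and 88.2, 94.9 and 96.7 FPKM in EX libraries. Class I was the larger sum in every library. The class II sum per 100 FPKM of class I was 14.2, 16.0 and 14.98 in Con and 22.1, 25.3 and 24.6 in EX libraries. The median log2 fold change was -0.21 over the class I genes and 0.45 over the class II genes. The difference between the classes is given as a description and was not tested.

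The nonclassical class I genes and class I-like proteins had 14 of 20 listed genes in the table, of which 11 were tested. Among these, 6 were lower and none higher in EX muscle, beside 8.8% lower and 9.11% higher of all genes tested, with a median log2 fold change of -0.23. The decreases with the smallest adjusted p-values were those of the Qa genes H2-Q6 (-0.78, standard error 0.08, adjusted p = 2.8e-08), H2-Q4 (-0.50, standard error 0.07, adjusted p = 2.5e-06) and H2-Q7 (-0.64, standard error 0.11, adjusted p = 0.00011). Counts of H2-Q6 ran from 388 to 449 in Con and from 227 to 277 in EX libraries, so the groups were far apart. All 3 Qa genes had counts that were not whole in all 6 libraries, and 5.99% of the 150-base windows of H2-Q6 and 8.31% of those of H2-Q7 also occur in another gene, so their separate values are uncertain. No window of H2-Q4 was shared. H2-T23, which encodes the Qa-1 molecule seen by natural killer cells, had a log2 fold change of -0.23 (adjusted p = 0.0476) and counts that were not whole in 3 libraries.

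Other decreases close to the threshold were those of H2-M3, which presents formylated bacterial peptides (-0.61, adjusted p = 0.0371), and Mr1, which presents metabolites to mucosal T cells (-0.16, adjusted p = 0.0486). H2-M3 had 43 to 51 counts in Con and 26 to 43 counts in EX libraries, and the groups overlapped in CPM. The number of class I relatives that passed fell from 6 to 3 without Con replicate 1, Con replicate 2 or EX replicate 1, and to 3 with DESeq2. Of the remaining relatives, the log2 fold change was 0.10 for H2-T22 (adjusted p = 0.341), whose counts were not whole in 2 libraries. Hfe, a regulator of iron uptake, had 0.14 (adjusted p = 0.083).

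Nlrc5 (gene 434341), the transactivator of class I genes, had a mean under 1 FPKM. In the fit without a filter on level, 12.0% of 16716 genes passed. Nlrc5 had 61, 89 and 91 counts in Con and 46, 39 and 38 counts in EX libraries, or 4.38, 5.66 and 5.71 CPM against 2.90, 2.48 and 2.41 CPM. Every EX library was below every Con library. Nlrc5 fell by 1.02 on the log2 scale in that fit (standard error 0.16, 95% interval of the change -1.35 to -0.69, adjusted p = 6.7e-06). Leaving out each library in turn or using DESeq2, both chosen after the data were seen, gave log2 fold changes of -1.13 to -0.95 with adjusted p-values of 7.4e-05 to 0.00346. Ciita (gene 12265), the transactivator of class II genes, had 9, 13 and 18 counts in Con and 9, 7 and 17 counts in EX libraries. The Ciita groups overlapped and its log2 fold change of -0.33 did not pass (standard error 0.37, 95% interval -1.06 to 0.41, adjusted p = 0.63). Changes within this interval remain possible.

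Of the other regulators, Irf2, an interferon regulatory factor, fell by 0.26 (standard error 0.07, adjusted p = 0.00674), with 390, 414 and 397 counts in Con and 334, 361 and 344 counts in EX libraries. The remaining 9 of 10 regulators tested, which include the X box and Y box proteins Rfx5, Rfxap, Rfxank, Nfya, Nfyb and Nfyc, did not pass, and the list's median was -0.03. Of 11 tested genes of the interferon gamma pathway 1 passed, the guanylate-binding GTPase gene Gbp3, which fell by 0.53 on the log2 scale (standard error 0.11, adjusted p = 0.000771), and the median was -0.09. For both lists the share that was lower is near the 8.8% of all genes tested. In the interferon gamma pathway 2 genes passed without Con replicate 1, Con replicate 3 or EX replicate 2.

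**Figure D2:**
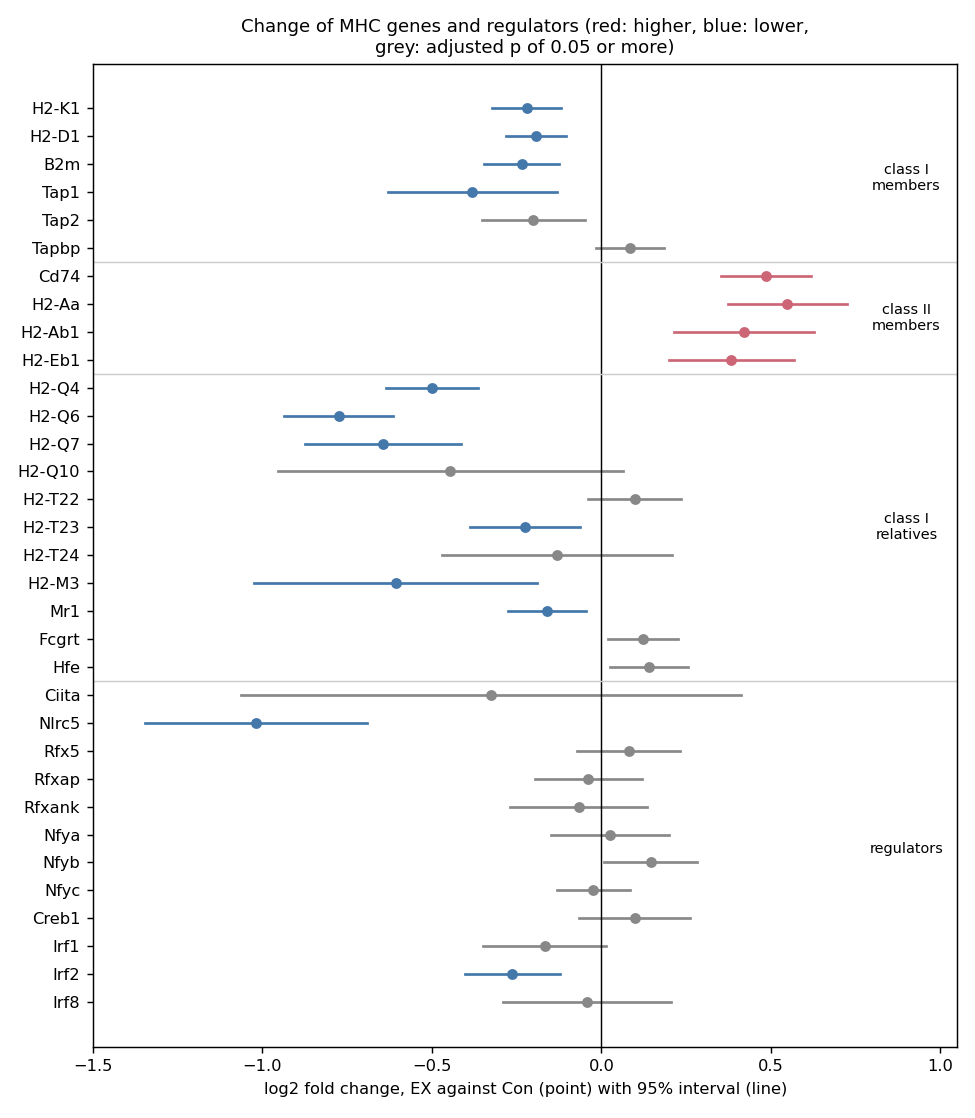
Log2 fold change of EX against Con (points) with its 95% interval (lines) for the 10 members, the 11 tested class I relatives and the 12 regulators on the list, where values for Nlrc5 and Ciita come from the fit without a filter on level. Class I values lie mostly left of 0 and all 4 class II values lie right of it, while Nlrc5 shows the lowest value, at -1.02.

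Of 11 tested genes of the immunoproteasome and peptide loading, 1 was higher, Calr, the chaperone calreticulin (0.20, standard error 0.04, adjusted p = 0.00112), and none was lower, with a median of 0.06. This share is near the 9.11% of all genes tested that were higher, and with limma on log2(FPKM + 0.1) or log2(FPKM + 1) neither Calr nor any other gene of the list passed. The immunoproteasome subunit genes Psmb8 and Psmb9 had log2 fold changes of -0.23 and -0.21 that did not pass (adjusted p = 0.156 and 0.469). They are named after their values were seen, because they lie beside Tap1 on chromosome 17.

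Of 9 tested class II relatives and processing genes, 3 were higher, against 9.11% of all genes tested, and none was lower, with a median of 0.08. Ctss, the protease cathepsin S that trims the invariant chain, had 28, 40 and 51 counts in Con and 98, 96 and 90 counts in EX libraries. It rose by 1.20 on the log2 scale (standard error 0.16, adjusted p = 3.1e-06), with every EX library far above the Con range. Lgmn, the protease legumain, rose by 0.24 (adjusted p = 0.0129) and Ctsb, cathepsin B, by 0.11 (adjusted p = 0.0483). The number that passed was 1 without Con replicate 2, Con replicate 3, EX replicate 1 or EX replicate 3, and 1 with DESeq2. H2-DMa and H2-DMb1, which edit the peptides bound to class II, had log2 fold changes of -0.01 and -0.14, with standard errors of 0.20 and 0.24, and neither passed.

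The class II genes moved beside the markers of macrophages. Of the 10 macrophage markers, 8 were tested, 6 were higher and 1 was lower, against 9.11% higher and 8.8% lower of all genes tested, with a median of 0.87 and a summed level of 52.0 to 55.7 CPM in Con and 83.8 to 91.1 CPM in EX libraries. Adgre1, which encodes the macrophage antigen F4/80, had 23, 19 and 20 counts in Con and 32, 30 and 36 counts in EX libraries and did not pass in the fit without a filter (adjusted p = 0.0806). Per 100 FPKM of the macrophage markers, the class II sum was 148, 153 and 148 in Con and 112, 111 and 117 in EX libraries, so this ratio was lower in all 3 EX libraries. Lyz2 was the largest part of the macrophage sum, with 25.9, 26.1 and 24.0 FPKM in Con and 42.5, 46.6 and 41.9 FPKM in EX libraries. The marker that was lower was Mertk (-0.42, adjusted p = 0.036). Both genes are named after their values were seen. Of the 5 general leukocyte markers, 3 were tested and 2 were higher, again against 9.11%, with a sum of 7.40 to 8.72 CPM in Con and 10.95 to 13.9 CPM in EX libraries. Ptprc, the leukocyte antigen CD45, had 20, 24 and 24 against 41, 24 and 35 counts (adjusted p = 0.168).

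The 7 dendritic cell markers summed to 19.3 to 20.8 CPM in Con and 17.4 to 19.7 CPM in EX libraries, of which 1 was tested and none passed. That 1 gene, Zbtb46, named after its values were seen, made up most of the sum, with 254, 287 and 299 counts in Con and 275, 277 and 245 counts in EX libraries (log2 fold change -0.13, adjusted p = 0.266). The other 6 had at most 17 counts in any library. Itgax, which encodes CD11c, had 6 to 10 counts in Con and 8 to 11 counts in EX libraries. The 6 T cell markers all lay under the filter and summed to 0.254 to 0.502 CPM in Con and 0.126 to 0.381 CPM in EX libraries, and Cd3e had 1, 1 and 0 counts in Con libraries and was at 0 in all 3 EX libraries. Where no count was seen, up to 3 counts remain possible, or 0.188 to 0.215 CPM depending on the library, with counting error alone considered. The part of any of these cell types in the class II result was not tested.

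The class I genes moved beside the markers of endothelium, a tissue rich in class I. Of 5 endothelial markers all were tested, 3 were lower, against 8.8% of all genes tested, and none was higher, with a median of -0.17 and a sum of 546 to 562 CPM in Con and 471 to 495 CPM in EX libraries. Pecam1, the endothelial adhesion molecule CD31, had a log2 fold change of -0.17 (adjusted p = 0.00496). Per 100 FPKM of these markers, the class I sum was 302, 282 and 284 in Con and 290, 271 and 297 in EX libraries, so these ratios overlapped between the groups. The part of endothelial RNA in the class I result was not tested.

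**Figure D3:**
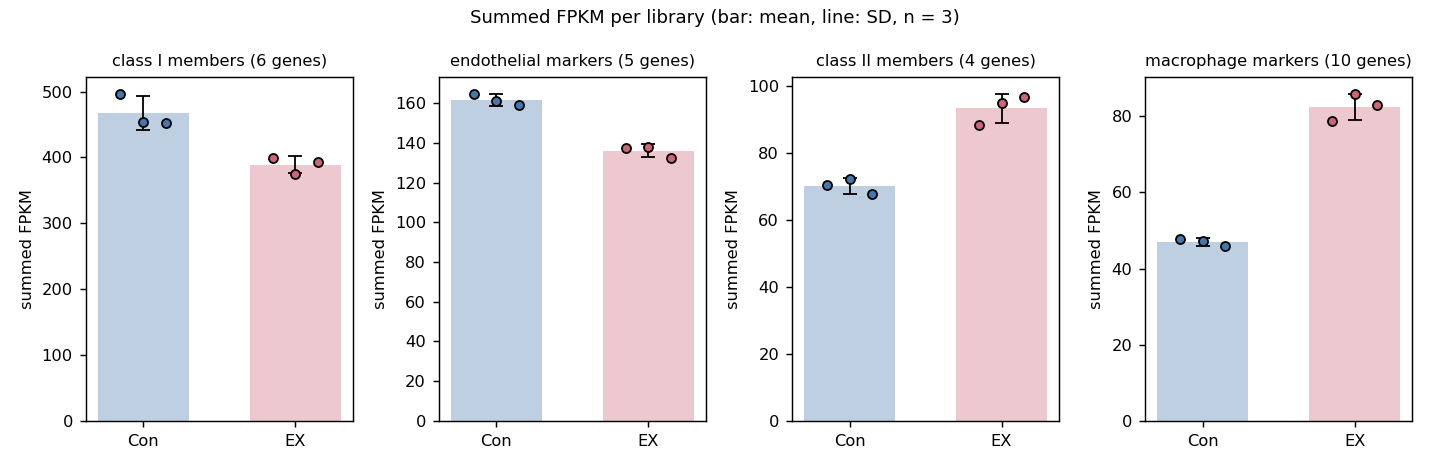
Summed FPKM per library (points) of the class I members, the endothelial markers, the class II members and the macrophage markers, with the mean (bar) and SD (line) of 3 mice for Con and EX and each vertical axis starting at 0. The class I and endothelial sums are lower in all 3 EX libraries, and the class II and macrophage sums are higher in all 3.

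Of the members, 8 lie in the MHC on chromosome 17, and their order along it was taken from the RefSeq gene table. Between Tapbp and H2-D1, 63 genes were tested, 8 of them members. Tap1, Psmb8, Tap2, H2-Ab1, H2-Aa and H2-Eb1 follow each other in that order among the genes tested. Of these, Tap1 was lower, Psmb8 and Tap2 did not pass, and the 3 class II genes were higher. Of the 55 other genes in the stretch, 6 were higher and 1 was lower, or 12.7% in either direction, against 17.9% of all genes tested. The members on other chromosomes were B2m, lower in EX muscle, and Cd74, higher in EX muscle.

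**Figure D4:**
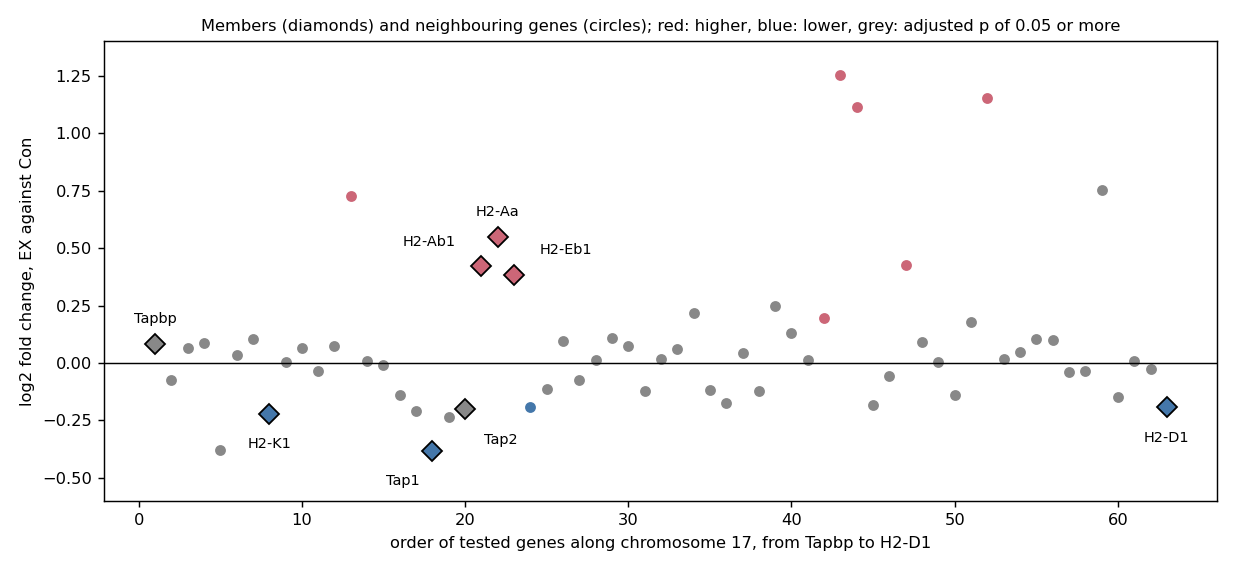
Log2 fold change of EX against Con (vertical axis) for the 63 tested genes from Tapbp to H2-D1, in their order on chromosome 17 (horizontal axis, rank), with members as diamonds and other genes as circles. The higher class II genes H2-Ab1, H2-Aa and H2-Eb1 stand beside Tap1 and Tap2, and most of the 55 other genes did not pass the test.

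The genes most like the members across the 6 libraries were found by Pearson correlation of log2 CPM, and the correlations carry the difference between the groups. For the mean of the class I members these were Fbxo32, Pfkfb3 and Traf3, each with r = 0.999, and Adgrf5 and Rnf150, each with r = 0.998. For the mean of the class II members they were Tmem267 (r = 0.996), Col6a3 (r = 0.994) and Cyb561d2, Mad2l2 and Atg101 (each r = 0.993). A correlation of at least 0.95 was reached by 329 genes for class I and by 219 genes for class II, so a high value was common in these libraries.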

How the data were processed

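Hind leg muscle RNA was measured in 6 libraries, 1 for each of 3 Con and 3 EX mice. The authors deposited estimated counts per gene and library, with FPKM and TPM values computed from them, in 1 table. The study's methods give matching to GRCm39 with HISAT, while the submitters' processing notes name GRCm38.p6, cutadapt, featureCounts and MultiQC, so the build behind the counts is unsure. The 6 columns of group means were not used.

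Estimated counts were rounded, TMM-scaled and tested in R 4.3.3 by the quasi-likelihood functions glmQLFit and glmQLFTest of edgeR 4.0.16 for genes whose mean reached 1 FPKM, with Benjamini-Hochberg adjustment over all genes tested, a threshold of 0.05 and no fold limit. Standard errors are the size of the log2 fold change divided by the square root of F. Total counts ranged from 13845362 to 16240431 per library. The test was checked on simulated counts. Alternatives were DESeq2 1.42.0, limma 3.58.1 on log2(FPKM + 0.1), log2(FPKM + 1) and log2(TPM + 0.1), other filters, roundings and scalings, a replicate block, and each library left out in turn.

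The members and lists were chosen with earlier results of these data known. Named genes are the members, list genes past the threshold (at most 6 by size), Nlrc5, Ciita and H2-Ea, the first gene of each cell type list and the 5 genes most like each class, and any others were chosen after their values were seen. One cell type list holds an item withheld for evaluation and is not reported here.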

Additional observations from a re-analysis of the deposited data

How the results depend on the processing

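All 4 class II genes passed and were higher in EX muscle under each of the 17 alternatives, with a class II median log2 fold change between 0.35 and 0.52, and H2-K1, H2-D1 and B2m passed and were lower under each. The number of lower members was 3 to 5 with 1 library left out. The class I median was -0.26 with limma on log2(FPKM + 0.1) and on log2(FPKM + 1), -0.30 with log2(TPM + 0.1), -0.24 with totals without the 20 most abundant genes, and -0.25 to -0.16 with 1 library left out. With log2(TPM + 0.1) the value of Tapbp was -0.0088 (adjusted p = 0.908), and the median of all genes was -0.09. Tap2 passed with log2(TPM + 0.1) (adjusted p = 0.0316), with a filter at 5 FPKM (0.0462) and with totals without the most abundant genes (0.0321). Tap1 lay under that filter.

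DESeq2 called 1228 genes in all in place of 1949, and 1344 to 1857 were called with 1 library left out. Of the class I relatives DESeq2 called 3, and 3 to 4 were called with 1 library left out. Of the class II relatives and processing genes 1 was called with DESeq2, limma on each scale or the stricter filter, and 1 to 3 with 1 library left out. Of the peptide loading genes limma on log2(FPKM + 0.1) and log2(FPKM + 1) called 0, so the call of Calr was lost. Without a filter 2 regulators were called. Of the interferon gamma pathway 3 genes were called with limma on log2(FPKM + 0.1) and log2(TPM + 0.1), 2 with log2(FPKM + 1) or totals without the most abundant genes, 0 with the stricter filter and 1 to 2 with 1 library left out. The cause of these differences was not tested.

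Same-numbered Con and EX libraries did not deviate together (correlations -0.084 to -0.052), and the other pairs had correlations of 0.005 to 0.067. With 3 libraries a group, these values cannot settle whether the numbers stand for a pairing. With the number as a replicate block 1782 genes were called, and the members called were 4 higher and 4 lower. The number of mice, 3 a group, and the depth, at most 148 counts per library for Tap1 and 18 for Ciita, limit the precision for these genes.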
